A study of Mus musculus with 6 samples.

Results

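The genes described here are 33 genes of fatty acid oxidation and of the response to peroxisome proliferator-activated receptors (PPARs), measured in the jejunum of irradiated mice. They were chosen by name, as every non-control spot whose gene name on the array equals a name of the list. All 33 genes were found, with 40 of the 55681 non-control probes of the array. Gene expression was measured on 6 arrays with 1 colour channel, 1 mouse to an array. Male C57BL/6J mice received 100 mg/kg VND3207, named in the labels by this code only, into the stomach (3 mice), or the same volume of vehicle (3 mice). Radiation of 9 Gy was given to both groups 0.5 h later and the tissue was taken 6 h after it, so all 6 mice were irradiated. The age of the mice is not given in the sources used here.

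Fatty acid oxidation cuts long acyl chains down to acetyl-CoA. Chains enter mitochondria as carnitine esters, pass through repeated rounds of dehydrogenation, hydration, a further dehydrogenation and thiolysis, and hand their electrons to the respiratory chain, while peroxisomes shorten very long and branched chains. PPARs are nuclear receptors that bind fatty acids and, paired with a retinoid X receptor, switch on many of these genes, and in the small intestine they act mainly in the absorptive enterocytes that take up dietary fat.

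Values are log2 signals relative to the 75th percentile of the same array, and differences are VND3207 minus vehicle, tested per probe with limma over all 36097 probes that passed a filter on dim signals. A call is an adjusted p below 0.05. All 40 probes of the 33 genes passed the filter and were well above background on all 6 arrays. Each gene is described on its brightest probe, and 31 of the 33 were brighter than the 75th percentile. Of non-control spots, 58.8% to 61.4% were well above background on the VND3207 arrays and 66.7% to 70.0% on the vehicle arrays. The VND3207 arrays all came from slide 2 and scan 2 and the vehicle arrays all from slide 1 and scan 1, so slide, scan and treatment cannot be told apart in any comparison. With bulk tissue, fewer cells of a type and less RNA per cell cannot be told apart either. All 10 listed enterocyte markers were measured, and 4 of them were called lower with VND3207. Over all probes 14.6% were called lower, and 4.57% among probes brighter than the 75th percentile. Of 4 endothelium markers 2 were called lower too. With quantile normalization 0 of the 10 enterocyte markers were called, as after a correction for position, brightness and GC content of spots.

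Of the 33 genes, 1 was called higher with VND3207 and 0 were called lower. The gene called higher was Hadha, which encodes the alpha subunit of the mitochondrial trifunctional protein. Over all 36097 probes, 0.925% were called higher and 14.6% lower, and among the 13141 probes brighter than the 75th percentile the shares were 0.662% and 4.57%. The share called higher therefore rests on a single gene, and no member was among the many probes called lower. At an unadjusted p below 0.05 the counts were the same, 1 higher and 0 lower. The differences ran from -0.51 to 0.46, with 15 above 0 and 18 below, and their median was -0.04, beside -0.06 over all probes and 0.01 over the bright ones. With quantile normalization 0 members were called, beside 2.36% of all probes higher and 9.02% lower, and the median was 0.03 for the members and for all probes. After the position correction of each array Hadha alone was called, beside 2.7% of all probes higher and 6.16% lower. The 95% interval of the difference stayed within 1.5-fold either way for 21 members and within 2-fold for 30, and apart from Hadha a difference within those intervals could not be told from 0 with 3 mice a group. The difference was smaller than the pooled SD between mice of a group for 24 of the 33.

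**Figure D1:**
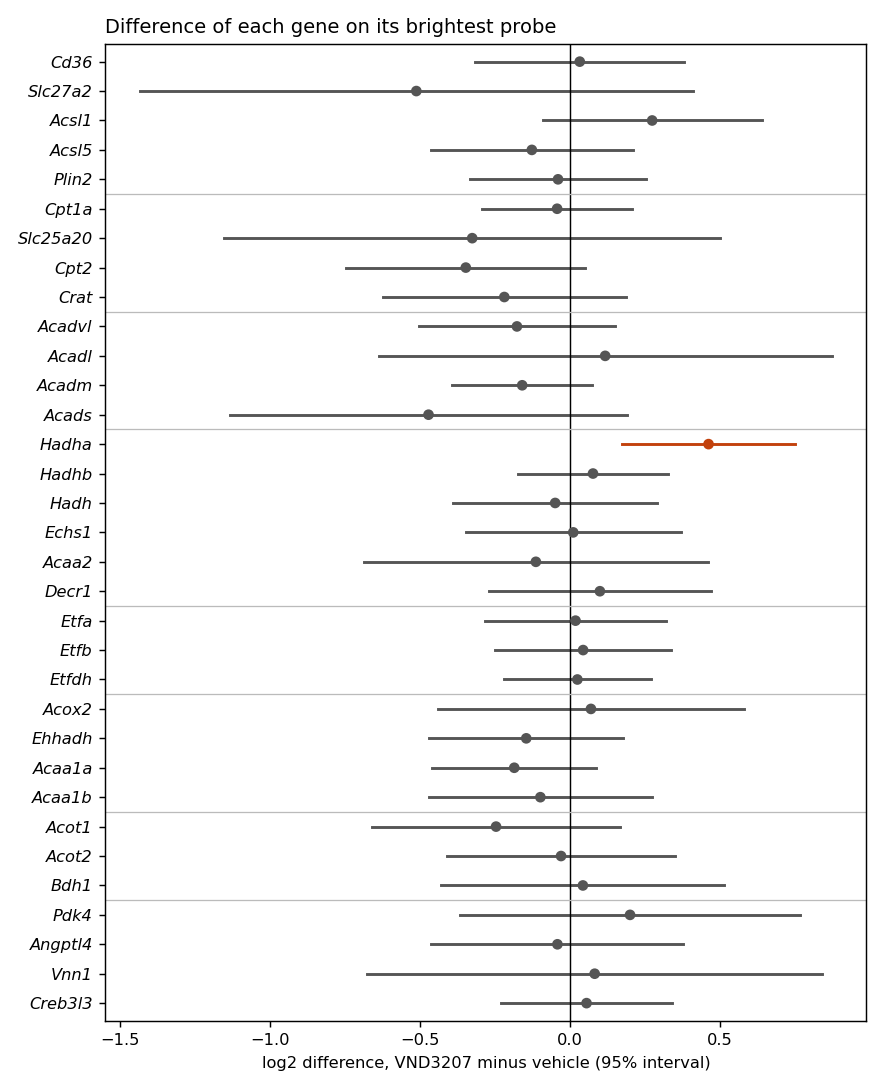
Log2 difference (VND3207 minus vehicle) of each of the 33 genes on its brightest probe, with its 95% interval as a horizontal line, and grey lines dividing the genes by role. The interval of Hadha (0.17 to 0.75, in orange) lies above 0, and the intervals of the other 32 include it.

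Hadha and Hadhb encode the alpha and beta subunits of the trifunctional protein, which carries out the later steps of a round on long chains. The genes lie head to head and share the stretch between their starts. In the RefSeq annotation of GRCm38.p6, Hadha starts at 30154980 of chromosome 5 on the minus strand and Hadhb at 30155253 on the plus strand. The 272 bases between them, chr5:30154981-30155252, are shown on the plus strand because this shared region faces a pair of genes with unequal differences, and 60.3% of them are G or C.
Hadha to Hadhb: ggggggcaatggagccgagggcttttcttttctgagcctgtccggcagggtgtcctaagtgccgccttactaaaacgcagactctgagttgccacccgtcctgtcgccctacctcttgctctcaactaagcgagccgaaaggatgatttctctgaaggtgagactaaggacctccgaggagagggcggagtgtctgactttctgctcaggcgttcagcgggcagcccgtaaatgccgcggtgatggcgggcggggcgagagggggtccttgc
Searched on both strands, the receptor hexamer AGGTCA occurs 0 times in it. The arrays read each gene with a single probe of 60 bases whose first 30 bases are given here to show what was measured.
Hadha probe, mm9 chr5:30446215-30446274, minus strand: ggaagcaggaaaaagaccaaggctagcctt
Hadhb probe, mm9 chr5:30510925-30510984, plus strand: gaatcgtctttgtaacatttgcagatactc

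Hadha had log2 signals of 2.63, 2.68 and 2.70 in the VND3207 mice, against 2.27, 2.34 and 2.01 in the vehicle mice. All VND3207 mice lay above all vehicle mice, and the spread was wider among the vehicle mice (SD 0.17, against 0.04 with VND3207, n = 3 each). The difference was 0.46 ± 0.12 (SE), with a limma adjusted p of 0.0497. That p lies at the threshold. Over the alternative treatments of all 6 arrays the difference ran from 0.43 to 0.57 and the limma adjusted p from 0.0228 to 0.118. Leaving out any single array, of either group, ended the call, with differences of 0.36 to 0.53 and limma adjusted p of 0.0789 to 0.140.

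Hadhb, whose product holds the thiolase activity of the complex, had 4.93, 5.01 and 5.09 in the VND3207 mice, against 4.93, 5.02 and 4.84 in the vehicle mice. The groups overlapped, and the difference was 0.08 ± 0.10 (limma adjusted p = 0.708). After the position correction it was 0.25 (limma adjusted p = 0.172), with all VND3207 mice above all vehicle mice. With normexp background correction it was -0.0045. Within each mouse the log2 signal of Hadha minus that of Hadhb was -2.30, -2.33 and -2.39 with VND3207, against -2.67, -2.69 and -2.83 with vehicle. Its size depends on how bright each probe is, so only the difference between groups can be read. That difference was 0.39, with no overlap, and the 2-sided exact permutation test gave p = 0.1, the smallest that 20 arrangements of 3 against 3 allow. The pair was set side by side after the values were seen.

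The other enzymes of the later mitochondrial steps had differences within the spread between mice. Hadh encodes the dehydrogenase for shorter chains and was at -0.05 ± 0.14 (limma adjusted p = 0.863). The enoyl-CoA hydratase gene Echs1 was at 0.01 ± 0.15 (limma adjusted p = 0.976). Decr1, needed for polyunsaturated chains, was at 0.10 ± 0.15, and its second, dimmer probe at 0.10 too. Acaa2, the gene of the mitochondrial thiolase for shorter chains, had 6.75, 6.65 and 7.36 in the VND3207 mice, against 6.73, 7.26 and 7.12 in the vehicle mice. The mice of each group differed more among themselves than the group means did (-0.11 ± 0.24, limma adjusted p = 0.811).

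**Figure D2:**
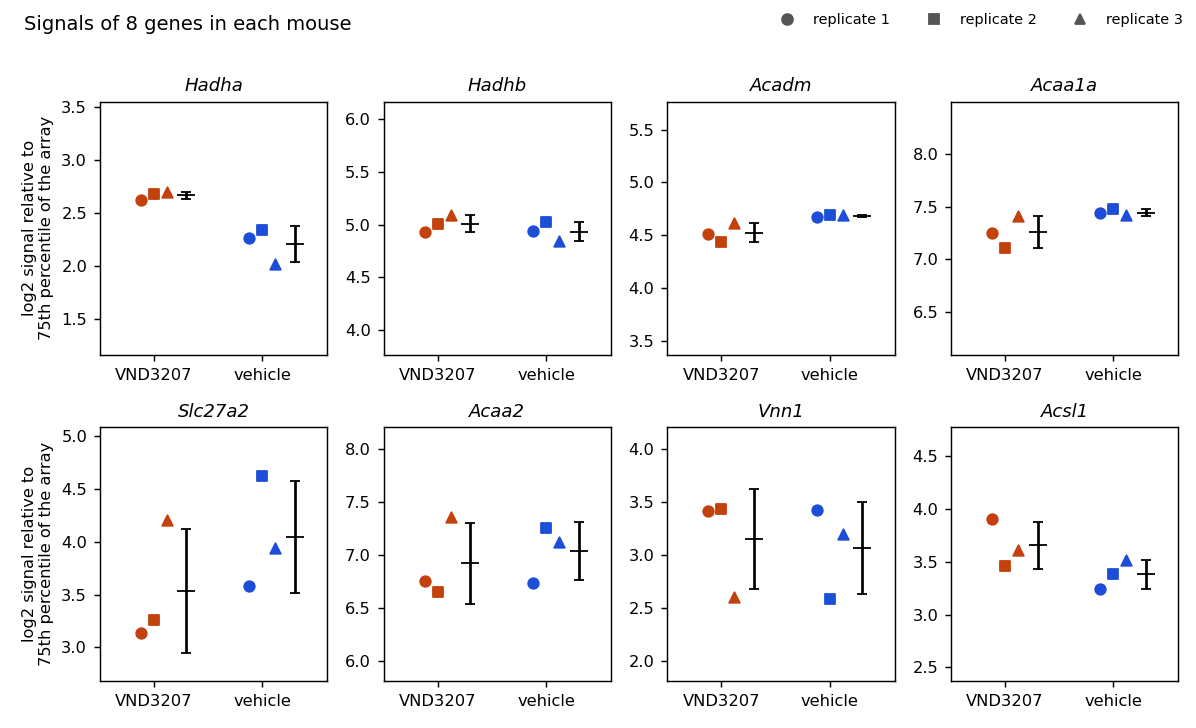
Log2 signal relative to the 75th percentile of the array for 8 of the genes, with 1 symbol per mouse and, beside the symbols, the group mean and SD as a bar (n = 3 each). All panels span the same range of log2 signal. Hadha separates the groups upwards, Acadm and Acaa1a separate them downwards by less, and Slc27a2, Acaa2 and Vnn1 vary widely within both groups.

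The acyl-CoA dehydrogenases open each round, and the 4 genes differ in the chain length their products act on. None was called. Acadm, the medium-chain gene, had 4.51, 4.44 and 4.62 in the VND3207 mice, against 4.67, 4.69 and 4.69 in the vehicle mice. All VND3207 mice lay below all vehicle mice, in a gene whose pooled SD between mice, 0.063, was the lowest of the 33. The difference was -0.16 ± 0.10, with a limma adjusted p of 0.36. Groups that do not overlap were common on these arrays, with VND3207 above in 9.41% of all probes and below in 24.8%. For bright probes the shares were 13.6% above and 14.3% below. Among the members they were 1 of 33 above and 2 of 33 below, so fewer than over all probes in either direction.

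Acadvl, which handles very long chains, was at -0.18 ± 0.13 (limma adjusted p = 0.472). Acadl, the long-chain gene, had 1.54, 2.34 and 2.49 in the VND3207 mice, against 1.64, 2.41 and 1.97 in the vehicle mice. Its groups overlapped throughout, and the interval of its difference, -0.64 to 0.87, was among the widest. Acads, for short chains, had -0.30, 0.45 and 0.05 in the VND3207 mice, against 0.07, 0.79 and 0.76 in the vehicle mice. The groups overlapped on the lowest vehicle mouse, and the difference of -0.47 ± 0.27 did not pass (limma adjusted p = 0.34).

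The carnitine shuttle moves acyl chains across the mitochondrial membranes. None of its 4 genes was called; their differences were all below 0 at the 75th percentile scaling, and that of Crat turned to 0.35 after the position correction, which removes smooth trends with the place, brightness and GC content of spots from each array. Cpt1a encodes the enzyme whose inhibition by malonyl-CoA sets the rate of entry. It had 3.01, 3.00 and 3.04 in the VND3207 mice, against 2.98, 3.20 and 3.01 in the vehicle mice on a probe printed 10 times per array. The groups overlapped at -0.04 ± 0.10 (limma adjusted p = 0.837), and the 95% interval was -0.29 to 0.21. A second, dim Cpt1a probe had -2.19, -1.94 and -2.13 with VND3207, against -1.82, -1.81 and -1.86 with vehicle. On that probe the groups did not overlap, and the difference of -0.25 ± 0.11 was not called (limma adjusted p = 0.191).

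Cpt2, which returns the chain to CoA inside the mitochondrion, had 4.36, 4.49 and 4.66 in the VND3207 mice, against 4.75, 5.14 and 4.66 in the vehicle mice. The highest VND3207 mouse and the lowest vehicle mouse met at 4.66. The difference was -0.35 ± 0.16 (limma adjusted p = 0.243), and a dimmer Cpt2 probe gave -0.05 ± 0.20. Slc25a20, the carrier that exchanges carnitine for its esters, had 0.36, -0.35 and 0.83 with VND3207, against 0.18, 0.88 and 0.76 with vehicle. Its pooled SD of 0.50 exceeded its difference of -0.33, which was -0.01 without VND3207 replicate 2 and -0.60 without VND3207 replicate 3. Crat, the transferase for short chains, was at -0.22 ± 0.17 (limma adjusted p = 0.474).

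Etfa, Etfb and Etfdh pass electrons from the dehydrogenases to ubiquinone. Their differences lay between 0.02 and 0.04, none was called, and each turned below 0 under at least 1 other treatment of the data, with Etfdh at -0.11 after the position correction. The 95% intervals were -0.28 to 0.32 for Etfa, -0.25 to 0.34 for Etfb and -0.22 to 0.27 for Etfdh. Both probes of Etfa gave a similar value, 0.02 and 0.03.

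Uptake, activation and storage of fatty acids were covered by 5 genes, of which 0 were called. Slc27a2 encodes a transport protein that also activates very long chains. It had 3.14, 3.26 and 4.21 in the VND3207 mice, against 3.58, 4.63 and 3.94 in the vehicle mice. The groups overlapped, and the mice of 1 group spanned 2.09-fold with VND3207 and 2.07-fold with vehicle. The difference of -0.51 ± 0.38 was the lowest of the list with all arrays and did not pass (limma adjusted p = 0.463). It was -0.85 without VND3207 replicate 3. Without VND3207 replicate 2 (-0.37) or vehicle replicate 2 (-0.22) it was no longer the lowest, since Acads was then at -0.66 and -0.35. Without VND3207 replicate 1 (-0.32) it was not the lowest either, with Slc25a20 at -0.37.

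Acsl1, an acyl-CoA synthetase gene induced by PPAR ligands in liver and fat, had 3.90, 3.46 and 3.61 in the VND3207 mice, against 3.24, 3.39 and 3.52 in the vehicle mice. The VND3207 mice held 2 of the 3 highest values, with an overlap between the lowest of them and the highest vehicle mouse. The difference was 0.27 on both Acsl1 probes, with a limma adjusted p of 0.318 on the brighter and 0.347 on the dimmer. On the dimmer probe the values were 0.39, -0.07 and -0.11 with VND3207, against -0.30, -0.16 and -0.14 with vehicle, without overlap. The mouse with the highest Acsl1 signal on both probes, VND3207 replicate 1, was also the mouse with the most adipocyte marker signal. The log2 of the summed signal of 8 adipocyte markers was 7.08, 5.62 and 5.11 in the VND3207 mice, against 5.78, 5.14 and 4.81 in the vehicle mice. The differences of 7 of the 8 markers were above 0, with a median of 1.28. That median was 0.05 without VND3207 replicate 1 and 2.54 without VND3207 replicate 3. No adipocyte marker was called, and the part of attached fat in the Acsl1 values was not tested.

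Acsl5, the synthetase gene best known from the enterocyte, was at -0.13 ± 0.14 (limma adjusted p = 0.63). Cd36, the fatty acid translocase gene, was at 0.03 ± 0.14 and Plin2, which coats lipid droplets, at -0.04 ± 0.12. Quantile normalization turned Acsl5 to 0.027 and Cd36 to -0.0014, and Plin2 was at -0.04 there.

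Peroxisomal oxidation was represented by 4 genes, none of them called. Acaa1a, a peroxisomal thiolase gene, had 7.25, 7.11 and 7.41 in the VND3207 mice, against 7.44, 7.48 and 7.42 in the vehicle mice. The VND3207 mice lay below the vehicle mice by a narrow margin at the nearest values. The difference of -0.19 ± 0.11 did not pass (limma adjusted p = 0.362), and it was 0.080 after quantile normalization. Its neighbour in the family, Acaa1b, was at -0.10 ± 0.15. Ehhadh, the peroxisomal bifunctional enzyme gene and a textbook PPAR alpha target in rodent liver, was at -0.15 ± 0.13 (limma adjusted p = 0.558). Acox2, the oxidase gene for branched chains and bile acid precursors, was at 0.07 ± 0.21.

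The thioesterases Acot1 and Acot2 release free fatty acids from CoA in the cytosol and the mitochondrion. Acot1 had 0.60, 0.61 and 0.61 in the VND3207 mice, against 0.56, 0.82 and 1.18 in the vehicle mice. The VND3207 mice were nearly equal to each other and lay within the vehicle range, at a difference of -0.25 ± 0.17 (limma adjusted p = 0.426). Acot2 was dim, at the 25.5th percentile of brightness among tested probes, and its difference of -0.03 ± 0.16 turned to 0.27 with quantile normalization. The Acot1 and Acot2 probes share no run longer than 6 of their 60 bases. They lie at different places of their transcripts and were not compared with the transcript of the other gene. Whether either probe also reads the other gene was therefore not tested.

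Bdh1, which interconverts the ketone bodies, was read by 3 probes whose differences had opposite signs. The brightest had 4.56, 4.84 and 5.09 in the VND3207 mice, against 4.50, 4.99 and 4.88 in the vehicle mice, a difference of 0.04 ± 0.19. The next had 3.52, 3.82 and 4.09 with VND3207, against 3.62, 4.07 and 3.91 with vehicle, a difference of -0.06 ± 0.19. On both, the same mouse was lowest in each group. The dimmest had 0.47, 0.36 and 0.34 in the VND3207 mice, against 0.49, 0.52 and 0.41 in the vehicle mice, at -0.08 ± 0.10. All differences were smaller than their errors.

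The remaining 4 genes respond to PPARs and regulate the use of fuel. Pdk4, whose kinase turns off glucose oxidation in fasting, had 2.05, 2.61 and 2.66 in the VND3207 mice, against 1.93, 2.56 and 2.23 in the vehicle mice. The groups overlapped at 0.20 ± 0.23 (limma adjusted p = 0.658). Angptl4, a secreted inhibitor of lipoprotein lipase, was at -0.04 ± 0.17. Creb3l3, a membrane-bound transcription factor of liver and intestine that acts with PPAR alpha, was at 0.05 ± 0.12. It was at 0.27 with quantile normalization (limma adjusted p = 0.133) and at 0.25 after the position correction (limma adjusted p = 0.249). Vnn1, a pantetheinase gene, had 3.42, 3.43 and 2.61 in the VND3207 mice, against 3.42, 2.59 and 3.20 in the vehicle mice. A single mouse in each group was low by about the same amount, and the group difference was 0.08 ± 0.31.

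**Figure D3:**
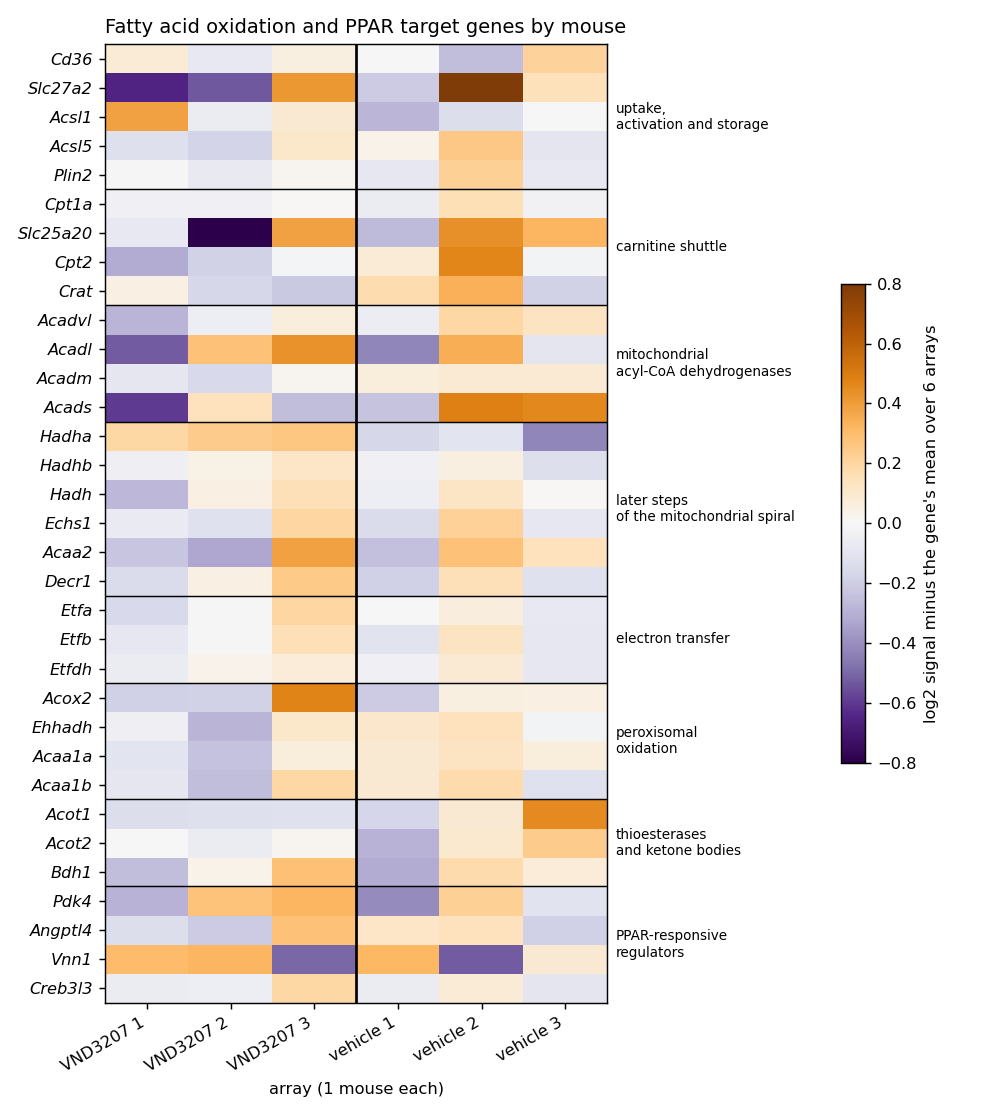
Log2 signal of each of the 33 genes in each mouse, as the difference from the mean of that gene over the 6 arrays, with VND3207 mice left of the black line and vehicle mice right of it. Colours end at 0.8 either way. The columns of VND3207 replicate 3 and vehicle replicate 2 are mostly orange, and the row of Vnn1 runs the other way.

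At the 75th percentile scaling, most genes of the list were highest in the same mouse of each group. VND3207 replicate 3 held the highest value of its group for 28 of the 33 genes (84.8%), against 44.7% over all tested probes. In the vehicle group, replicate 2 held the highest value for 28 of the 33 as well (84.8%), against 36.5% over all tested probes. Among probes brighter than the 75th percentile the corresponding shares were 43.7% and 41.5%. The exceptions were Acads, Acsl1, Cd36, Crat and Vnn1 in the VND3207 group and Acot1, Acot2, Acsl1, Cd36 and Vnn1 in the vehicle group. Counted against each gene's own mean over the 6 mice, 5, 10 and 28 genes were above it in the VND3207 mice, against 9, 29 and 14 in the vehicle mice. The median deviation from that mean was -0.09, -0.06 and 0.12 with VND3207, against -0.06, 0.14 and -0.02 with vehicle. The lowest value was less uniform, falling in VND3207 replicates 1, 2 and 3 for 17, 14 and 2 genes and in the vehicle replicates for 19, 2 and 12. These counts depend on the 75th percentile scaling and were not tested. After the position correction the vehicle mice had 4.63, 4.66 and 4.81 for Acadm and 5.83, 6.18 and 6.26 for Acadvl, both highest in replicate 3. Acaa2, at 6.63, 7.19 and 7.15, stayed highest in replicate 2. The genes were not counted under the other scalings.

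The spread between mice was larger than the spread between spots of 1 array where both could be measured. Cpt1a and Acaa2 are each printed 10 times per array. For Acaa2 the SD between spots was 0.016 to 0.063 on an array, beside a pooled SD of 0.33 between mice. For Cpt1a it was 0.027 to 0.079, beside 0.085 between mice. The Acaa2 values thus differed between mice by more than between spots, while for Cpt1a the highest spot SD came close to the SD between mice. With 1 array per mouse, the SD between mice also holds differences between arrays, which spots of an array cannot show. Each value is a mean over spots, so the SD of single spots is not its error. Over the 33 genes the pooled SD between mice had a median of 0.19 and ran from 0.063 for Acadm to 0.56 for Slc27a2, and 9 genes reached 0.25.

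Marker sums moved with some of these counts. The log2 of the summed signal of 10 enterocyte markers was 10.87, 10.92 and 11.02 in the VND3207 mice, against 11.32, 11.48 and 11.27 in the vehicle mice. Within each group, at the 75th percentile scaling, the highest enterocyte sum fell in the mouse that was also highest for most of the 33 genes. The highest endothelium and hepatocyte sums fell in the same mice. Between the groups all VND3207 mice lay below all vehicle mice on the enterocyte sum, while the median deviations of the 33 genes overlapped. This separation was not particular to enterocyte markers. The log2 sums of endothelium markers were 2.89 to 3.07 with VND3207, against 3.39 to 3.61 with vehicle, and those of ileum and colon markers 3.94 to 4.05, against 4.53 to 5.08 with vehicle. Macrophage marker sums were 5.02 to 5.23 with VND3207, against 5.26 to 5.77 with vehicle, and hepatocyte marker sums lay below those of the vehicle mice by a margin lost in rounding (7.77 to 8.02, against 8.02 to 8.28 with vehicle). Such sums weigh the brightest markers most. The hepatocyte list was Alb, Ttr, Serpina1c and Apoc3, 3 of them measured. It was not checked for genes that enterocytes also express, so its sum cannot be read as liver cells. Marker by marker, the differences above 0 were 2 of 10 for enterocytes, 2 of 4 for endothelium and 2 of 4 for ileum and colon. For macrophages they were 4 of 6 and for hepatocytes 1 of 3. The median difference of the enterocyte list was -0.30 at the 75th percentile scaling, and with quantile normalization it was -0.06 with 0 of 10 called. After the position correction that median was 0.02, also with 0 of 10 called. The log2 of the summed signal of 6 smooth and striated muscle markers was 7.08, 7.00 and 5.13 with VND3207, against 6.99, 6.84 and 7.15 with vehicle. VND3207 replicate 3 was thus lowest in muscle markers and highest for most of the 33 genes. Whether the makeup of the piece of tissue plays a part in the values of the list was not tested.

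**Figure D4:**
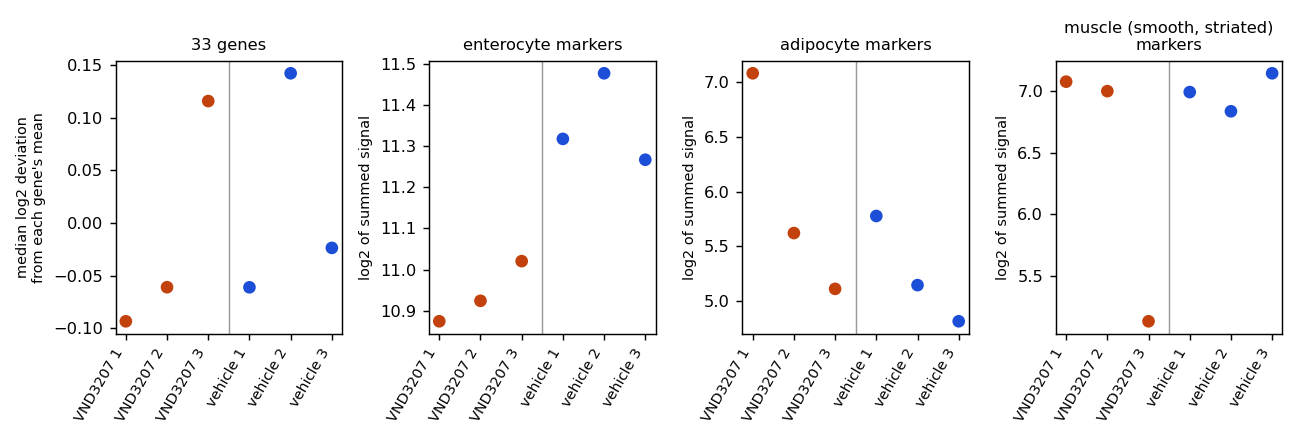
One point per mouse, VND3207 left and vehicle right in each panel, for the median log2 deviation of the 33 genes and for the log2 summed signal of 10 enterocyte, 8 adipocyte and 6 muscle markers. The vertical axes differ between panels and do not start at 0. VND3207 replicate 3 and vehicle replicate 2 are highest in their group in the first and second panels, and VND3207 replicate 3 is lowest in the muscle panel.

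Around the 33 genes, 81 further genes of the same pathways were listed, and 78 were measured. Of these 1 was called higher and 3 lower, where 0.925% and 14.6% of all probes were. Of the 78 differences 29 were above 0, and their median was -0.08. Acot3, a peroxisomal thioesterase gene, had -3.19, -3.11 and -3.27 in the VND3207 mice, against -4.19, -3.74 and -3.67 in the vehicle mice. It rose by 0.67 ± 0.16 without overlap (limma adjusted p = 0.0397), on a dim probe. It was called in 7 of 11 treatments of the full set of arrays. The call was lost after the position correction (0.38, limma adjusted p = 0.179), with no filter on dim probes (limma adjusted p = 0.0579), with a variance trend and robust fit (0.0605) and when any 1 of the 6 arrays was left out (limma adjusted p from 0.0507 to 0.125).

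Rxrg, a retinoid X receptor gene, had 1.45, 1.64 and 1.55 in the VND3207 mice, against 2.75, 2.54 and 2.31 in the vehicle mice. On the log2 scale it fell by 0.99 without overlap (SE 0.14, limma adjusted p = 0.00691). The call held with each array left out and in all 11 treatments of the full set of arrays, where the difference ran from -1.03 to -0.80. A second, dimmer Rxrg probe was at -0.44 ± 0.47 and was not called. The PPAR genes and Rxra did not pass. Ppara, the receptor best known for driving oxidation, had 2.58, 2.42 and 3.06 in the VND3207 mice, against 2.95, 2.93 and 3.21 in the vehicle mice, with a difference of -0.35 ± 0.19 (limma adjusted p = 0.318). Ppard was at 0.00 ± 0.16, Pparg at -0.08 ± 0.17 and Rxra at -0.15 ± 0.11.

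Fabp1 and Fabp2, the cytosolic fatty acid binding protein genes of the enterocyte, made up the other 2 calls. Fabp1 had 7.89, 8.11 and 8.15 in the VND3207 mice, against 8.82, 9.04 and 8.74 in the vehicle mice. The groups lay apart at -0.82, and the limma adjusted p was 0.00967. With quantile normalization Fabp1 was at -0.42 (limma adjusted p = 0.0571) and after the position correction at -0.31 (limma adjusted p = 0.170). Fabp2, which is also in the enterocyte marker list, was at -0.58, at -0.13 with quantile normalization and at 0.05 after the correction. Fabp1 was called in 8 and Fabp2 in 7 of the 11 treatments of the full set of arrays. For Fabp2 the limma adjusted p was 0.0233 at the 75th percentile scaling and 0.0447 to 0.0826 with an array left out. The sums of the enterocyte, endothelium, macrophage, hepatocyte and ileum and colon marker lists separated the groups in the same direction. These lists were not checked for genes shared between cell types, and their part in both values was not tested.

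By list, 0 of 6 ketone body genes, 0 of 12 other mitochondrial genes and 0 of 9 synthetase and transport genes were called, beside the same shares of 0.925% higher and 14.6% lower over all probes. In the last list 1 gene was called lower when VND3207 replicate 3, vehicle replicate 1 or vehicle replicate 3 was left out.

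The choice of scaling moved the balance of all calls, and it moved single members with it. Of all calls, 5.97% were higher at the 75th percentile scaling, 20.8% with quantile normalization, 22.5% in the deposited value table and 30.4% after the position correction. The median of all probes shifted by 0.11 between the first of these and the deposited table. Hadha was above 0 under all of them. For the other genes the order of the list was kept only in part. Crat, Acot2, Acsl5, Acaa1a, Acaa2, Hadh and Angptl4 were below 0 at the 75th percentile scaling and above 0 under at least 1 other. Cd36, Etfdh and Vnn1 turned from above 0 to below it under at least 1 other. Over all alternatives, leaving out arrays included, 22 of the 33 genes changed sign at least once and 11 did not.

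**Figure D5:**
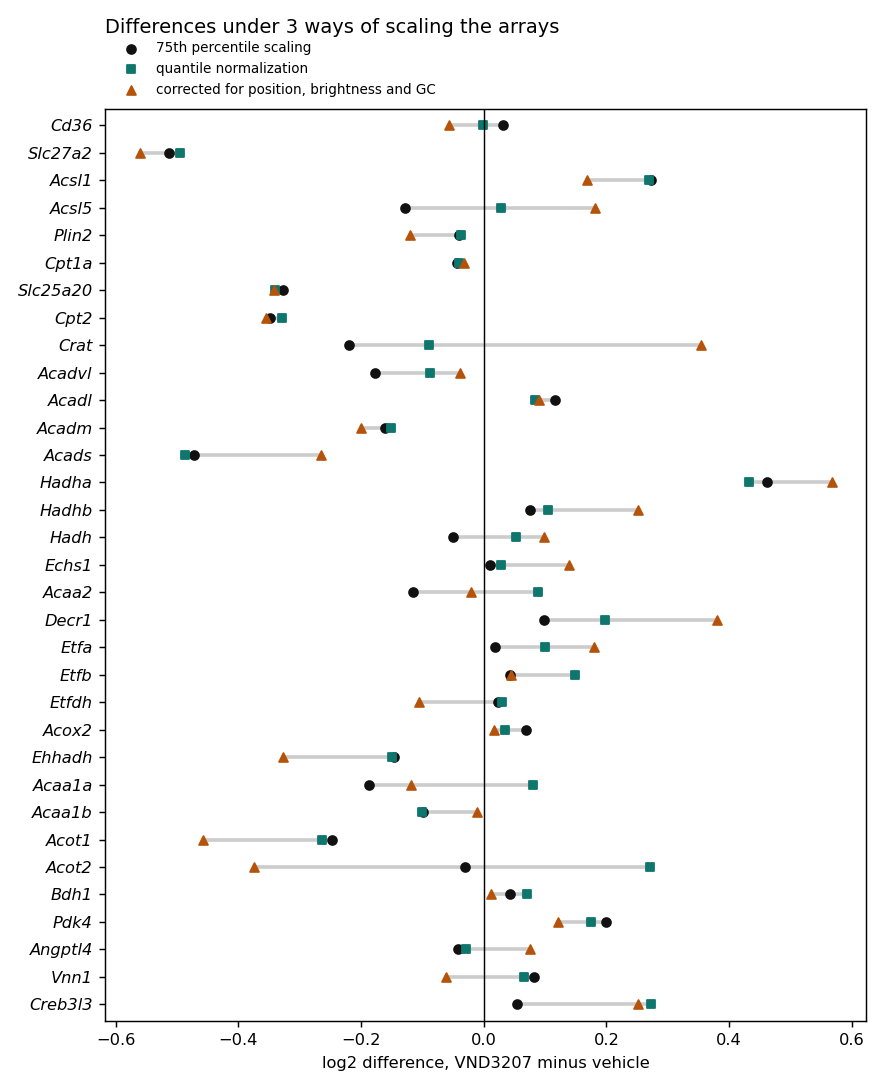
Log2 difference (VND3207 minus vehicle) of each of the 33 genes under the 75th percentile scaling (black circles), quantile normalization (green squares) and the correction for position, brightness and GC content (orange triangles). Hadha stays between 0.43 and 0.57, and Crat and Acot2 cross 0 with the widest shifts.

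PPARs paired with a retinoid X receptor bind a direct repeat of the hexamer AGGTCA with any 1 base between the copies. Both strands of the RefSeq promoters (GRCm38.p6, windows of 300 bases around the gene's start) were searched for it, and 28 of the 33 genes had an entry. No member held the repeat without mismatch, while 0.0481% of 27025 genes did. With at most 2 mismatches the repeat was found in 7 of the 28 (25.0%), against 4.40% of all genes. The hexamer alone, which is part of the repeat, was found in 8 of the 28 (28.6%), against 18.1%. The list was chosen in part for the response to PPARs, so a higher share than over all genes is no result of these data. The 7 stretches are shown with the match in capitals on the strand of the gene, so that the letters behind this count can be read.
Acox2, chr14:8258810-8258838: gctgtcccAGGACAGAGGTGAgtcaagag
Cd36, chr5:17835939-17835967: tggttctcTGGCCTCTGACTTacttggat
Creb3l3, chr10:81092780-81092808: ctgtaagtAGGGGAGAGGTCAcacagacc
Echs1, chr7:140116484-140116512: gcccgctcAGGTCACGGGTCCacccctta
Etfa, chr9:55512300-55512328: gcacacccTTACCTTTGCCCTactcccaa
Plin2, chr4:86670264-86670292: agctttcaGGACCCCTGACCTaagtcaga
Slc25a20, chr9:108662134-108662162: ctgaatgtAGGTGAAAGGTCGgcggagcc
The match reads along the gene in Acox2, Creb3l3, Echs1 and Slc25a20 and on the opposite strand in Cd36, Etfa and Plin2. In Acox2 and Slc25a20 it lies after the gene's start, and in the others before it. None of these 7 genes was called, and their differences ran from -0.33 for Slc25a20 to 0.07 for Acox2. A match is a run of letters and not a binding site, and Hadha, the gene that passed, was not among the 7.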

How the data were processed

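Jejunum RNA of 6 mice was measured on 1-colour arrays with probes of 60 bases. Per the file headers, Agilent Feature Extraction 10.7.1.1, also named in the submitters' processing notes, produced the scanner files. The deposited intensity values used are its processed signal, per the file headers a background-subtracted and detrended Cy3 signal that is not scaled across arrays. The authors' value table in log2 units served as an alternative, and how it was made is not given in the sources used here. Per the labels, samples fell into VND3207 and vehicle, and 0 value columns were left without a sample.

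Outlier-flagged and control spots were left out, spots of a probe were averaged, and the array's 75th percentile was subtracted from log2 signals. A probe was tested when well above background on 3 or more of the 6 arrays. The test was limma 3.58.1 in R 4.3.3 (lmFit, eBayes, 2-sided, group as the only term), with Benjamini-Hochberg adjustment over all 36097 probes and a threshold of 0.05. Errors after ± are limma's moderated standard errors. The number of arrays limits the precision, and 0 spots were saturated. The labels do not say how the mice were housed or handled, so p-values measure only the spread between these samples.

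The members, the other pathway genes and the marker lists were chosen with earlier results of these data known. Every member is named. Other pathway genes are named when called, and Ppara, Ppard, Pparg and Rxra whatever their values, while some other genes are not reported here. Values per mouse were set by rule for called members, members whose groups do not overlap and members whose probes differ in sign, and for further genes were added after their values were seen. Gene names and probe positions (mm9) are those of the array files, and promoter sequences are RefSeq's (GRCm38.p6).

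Alternatives were quantile normalization, the authors' table, normexp background correction (offset 50), looser and stricter filters on dim probes, other ways to combine probes, other variance models, array weights, a threshold of 0.1, the replicate number as a block, and each array left out. In a further alternative, smooth trends with spot place, brightness and GC content were fitted with mgcv 1.9.3 and removed from each array, which may take away true differences that run along these trends. The pipeline was tested on simulated data.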

Additional observations from a re-analysis of the deposited data

How the results depend on the processing

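Hadha was the single member called higher, and 0 members were called lower under any alternative. The count of members called higher was 0 with quantile normalization (limma adjusted p of Hadha 0.0502), with no filter on dim probes (0.0640), with probes well above background on all arrays only (0.0526), with the replicate number as a block (0.118), and 0 to 0 with each array left out in turn. It was 1 under the others, a threshold of 0.1 included. The deviations of equally numbered mice correlated at 0.13, -0.11 and -0.05, and those of unequally numbered mice at -0.26 to 0.30. With 3 mice a group these values cannot tell whether the replicate numbers pair the mice. The block brought the calls over all probes to 143 higher and 3410 lower, against 334 and 5258 without it. It also ended the calls of Acot3 (limma adjusted p = 0.0870) and Fabp2 (0.0725). No filter on dim probes gave 662 higher and 5511 lower, and quantile normalization 853 and 3257. The median difference of the 33 genes ran from -0.089 to 0.011 with an array left out.

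Differences that turned sign stayed uncalled, and the cause was not tested. Quantile normalization gave 0.080 for Acaa1a, 0.089 for Acaa2, 0.27 for Acot2, 0.027 for Acsl5, 0.053 for Hadh and -0.0014 for Cd36. The deposited value table gave 0.082 for Acaa1a, 0.091 for Acaa2, 0.27 for Acot2, 0.035 for Acsl5 and 0.058 for Hadh. The correction for position, brightness and GC content gave 0.18 for Acsl5, 0.075 for Angptl4, -0.056 for Cd36, 0.35 for Crat, -0.11 for Etfdh, 0.098 for Hadh and -0.061 for Vnn1. The normexp correction gave 0.10 for Acot2, -0.080 for Etfa, -0.078 for Etfb and -0.0045 for Hadhb. Array weights gave -0.040 for Acox2, -0.034 for Bdh1, -0.065 for Echs1, -0.025 for Etfa and -0.0037 for Etfb. The mean of its probes gave -0.031 for Bdh1.

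Leaving out an array moved the difference of Acaa1b between -0.22 and 0.0022, Acaa2 between -0.33 and 0.020, Acadl between -0.067 and 0.41, Acot2 between -0.18 and 0.081, Acox2 between -0.15 and 0.18, and Angptl4 between -0.19 and 0.051. The ranges were -0.10 to 0.18 for Bdh1, -0.087 to 0.14 for Cd36, -0.085 to 0.024 for Cpt1a, -0.027 to 0.11 for Creb3l3, -0.0011 to 0.20 for Decr1 and -0.087 to 0.12 for Echs1. They were -0.076 to 0.10 for Etfa, -0.023 to 0.12 for Etfb, -0.013 to 0.073 for Etfdh, -0.14 to 0.072 for Hadh, -0.093 to 0.060 for Plin2 and -0.16 to 0.35 for Vnn1. Counting the 33 genes over all alternatives, 491 values kept their direction and their side of the threshold, 60 turned sign and 10, all of Hadha, were no longer called.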
